A study of Mus musculus with 23 samples.

Results

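The T-cell receptor (TCR) alpha chain is assembled from one variable segment (TRAV) and one joining segment (TRAJ), and the segments described here were all those named in a productive alpha-chain (TRA) row of the TCR contig tables. That rule gave 88 TRAV genes and 43 TRAJ segments, 131 in all, carried by 29676 productive chains of 61700 contigs. The GENCODE vM21 annotation of the mouse genome (GRCm38) lists 128 Trav and 60 Traj genes, so 40 Trav and 17 Traj genes had no chain. Of those without a chain, 20 Trav and 9 Traj genes are annotated as pseudogenes. The tables came from lymph nodes (LN) of 2-month-old C57BL/6 mice that carried wild-type Stat5b (WT, 2 libraries) or the Y665F change of the STAT5B protein on 1 allele (het, 3 libraries) or on both (homo, 2 libraries). The change replaces a tyrosine by phenylalanine, was made by genome editing on the C57BL/6N background (the labels give C57BL/6), and is carried by every cell of the animal. Cytokines such as IL-2, IL-7 and IL-15 act on T cells through STAT5B, which carries their signal to the nucleus. The series holds 23 samples, and the other tissues had no contig table among the files used here.

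In a developing thymocyte the recombination enzymes cut beside one V and one J segment and join them, trimming bases from both ends and adding bases that no template encodes. The join lies in the third complementarity-determining region (CDR3), the loop that touches the peptide. The alpha locus can rearrange again on the same chromosome, each time joining a V gene farther upstream to a J segment farther downstream, until a receptor is accepted or the cell dies. A few joins recur in every mouse: TRAV11 with TRAJ18 is the chain of invariant natural killer T (iNKT) cells, which see lipids on CD1d, and TRAV1 with TRAJ33 is that of mucosal-associated invariant T (MAIT) cells, which see vitamin B metabolites on MR1. CD8 T cells read peptides on MHC class I and CD4 T cells peptides on MHC class II.

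All 131 segments lie on the plus strand of chromosome 14. The V genes run from TRAV1 (14:52427928-52428876) to TRAV21-DV12 (14:53875984-53876752), the J segments with chains from TRAJ58 (14:54157280-54157342) to TRAJ2 (14:54217836-54217901), and the constant gene Trac follows. Germline J segments are shown here for the outermost pair with chains, for the invariant joins and for the segments on which the results turn. The codon that closes the CDR3 (phenylalanine or tryptophan) is in capitals, and the sequences are read 5′ to 3′ on GRCm38.
TRAJ58, nearest the V genes (14:54157280-54157342): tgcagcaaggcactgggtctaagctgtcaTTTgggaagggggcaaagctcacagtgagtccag
TRAJ47 (14:54171800-54171856): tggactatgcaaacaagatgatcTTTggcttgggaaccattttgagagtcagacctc
TRAJ37 (14:54181518-54181577): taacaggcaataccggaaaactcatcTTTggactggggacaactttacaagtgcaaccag
TRAJ33 (14:54185358-54185414): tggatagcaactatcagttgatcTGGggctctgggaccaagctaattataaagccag
TRAJ31 (14:54187895-54187951): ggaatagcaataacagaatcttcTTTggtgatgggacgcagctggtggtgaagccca
TRAJ22 (14:54197248-54197307): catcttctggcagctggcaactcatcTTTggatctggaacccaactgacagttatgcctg
TRAJ18 (14:54200777-54200842): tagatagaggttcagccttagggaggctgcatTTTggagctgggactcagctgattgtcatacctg
TRAJ2, farthest from the V genes (14:54217836-54217901): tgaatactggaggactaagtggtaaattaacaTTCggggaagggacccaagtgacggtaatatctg

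The V genes enter the CDR3 at a conserved cysteine, and the last 60 germline bases of 6 of them are shown with that codon in capitals, since the bases after it are what a V gene can give to the loop.
TRAV1, gene 14:52427928-52428876: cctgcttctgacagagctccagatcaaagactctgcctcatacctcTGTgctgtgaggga
TRAV12D-3, gene 14:52929789-52930282: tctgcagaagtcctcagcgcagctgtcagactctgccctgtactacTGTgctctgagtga
TRAV16D-DV11, gene 14:53047287-53047821: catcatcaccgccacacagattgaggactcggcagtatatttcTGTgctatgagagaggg
TRAV4N-4, gene 14:53302036-53302559: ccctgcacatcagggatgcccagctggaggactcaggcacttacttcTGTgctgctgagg
TRAV9-1, gene 14:53488045-53488567: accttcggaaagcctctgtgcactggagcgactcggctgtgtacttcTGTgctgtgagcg
TRAV11, gene 14:53519303-53519859: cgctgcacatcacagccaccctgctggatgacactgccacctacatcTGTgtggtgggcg

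The libraries held between 2922 and 6046 productive alpha chains, with a median of 5 unique molecular identifiers (UMIs, counts of distinct RNA molecules) per chain in each. No chain was found with the same barcode in 2 libraries, and a pair of TCR libraries shared 12 to 42 barcodes. Between 94.5 and 98.9% of TCR barcodes were found in the expression library of the same sample, against at most 1.57% in any other. The expression libraries of het replicate 3 and homo replicate 1 stood apart in depth, with medians of 438 and 462 UMIs per alpha-chain barcode against 1077 to 3566.5 in the other 5. A cell was gated CD8 with at least 1 Cd8a or Cd8b1 UMI and no Cd4 UMI, and CD4 with the reverse. That left 1040 to 2068 CD8 and 161 to 858 CD4 cells per library, and 22.0 to 63.8% of passing cells without a gate, the most in the shallow pair. In B cells, which should lack both, 0 to 0.440% of barcodes had a Cd4 UMI and 0 to 0.888% a Cd8a or Cd8b1 UMI, with medians of 311 to 1949 UMIs. These B barcodes were chosen to have no Cd3e or Cd3d UMI and no contig, so the shares can understate the background. Cd3e or Cd3d, parts of the receptor complex of every T cell, was seen in 55.6 to 98.7% of alpha-chain barcodes. The labels number the replicates without saying that each is a separate mouse, so p-values measure at most the spread between these libraries. A caption of the study, in a figure titled for spleen, names lymph nodes and a combined sample from several mice per group. The edgeR p-values also draw on a spread pooled over the tested segments, and can be smaller than so few libraries alone would allow.

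Use of the segments was broad. Of the 88 TRAV genes, 84 were seen in all 7 libraries, and each of the 43 TRAJ segments was. The most used V genes were TRAV12D-3, with 3.89% of chains on average over libraries, TRAV6D-6 (3.84%), TRAV7D-2 (3.61%), TRAV3N-3 (3.20%) and TRAV13-1 (3.06%), and together these 5 took 17.6%. These means are over 7 libraries, 5 of them mutant, and TRAV12D-3 was lower in both WT libraries than in any mutant library. The median V gene took 1.02%, and 6 were under 0.1%. TRAJ22 led the J segments with 5.62%, followed by TRAJ31 (5.32%), TRAJ23 (4.74%), TRAJ30 (4.08%) and TRAJ26 (3.85%), and TRAJ35 was lowest with 0.485%. The outermost J segments with chains were below the equal share of 2.33%: TRAJ58 held 1.03 to 1.44% of chains per library and TRAJ2 0.415 to 0.973%. The invariant segments were no more than ordinary members by use, at 1.58 to 2.10% for TRAJ18, 1.95 to 3.12% for TRAJ33, 0.240 to 0.452% for TRAV11 and 0.274 to 0.592% for TRAV1. TRAV11D, a copy of TRAV11 at 99.2% identity, had no chain.

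Part of the mouse V cluster exists in repeated copies, which the D and N in gene names mark. Over the last 250 bases of the gene, 51 of the 88 TRAV genes matched another annotated Trav gene at 98% or more and 18 were identical to one, and 66.2% of chains were on such genes. For 26 of the 51 a near-identical copy had no chain at all. TRAV12D-3 is an example, being identical to TRAV12N-3, which had none. Whether the chains on these genes were placed on the right copy was not tested, and their V position is uncertain. The expression libraries gave another reading of the same cells: of the Trav UMIs in barcodes with 1 alpha chain, 71.2 to 74.7% per library fell on the gene that the contig names. On any gene of the same family fell 73.3 to 76.9%, and most of the other UMIs were on other families. How reads that match several copies were counted was not checked, so these shares do not bear on the placement among copies.

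**Figure D1:**
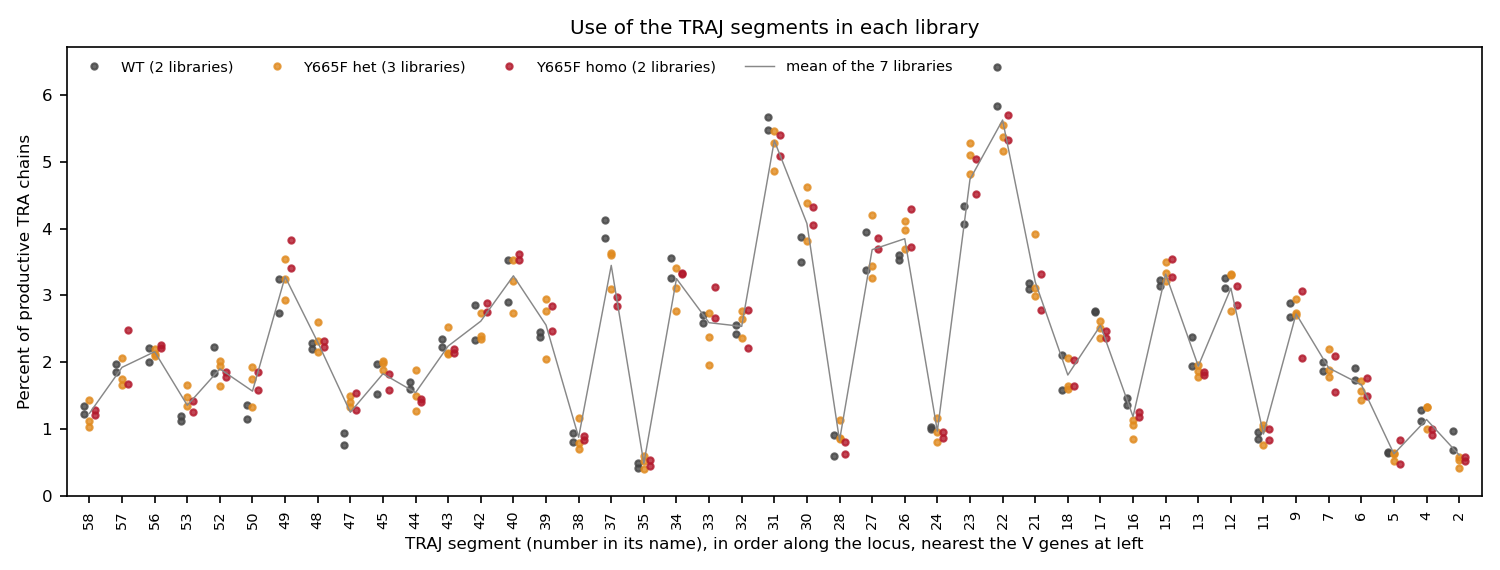
Use of the 43 TRAJ segments in lymph node alpha chains, in order along the locus from TRAJ58, nearest the V genes, to TRAJ2. Points are the percent of productive alpha chains of each library, coloured by genotype, and TRAJ22, at 5.16 to 6.42%, is the highest.

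V and J were joined by position. Of chains on the 29 V genes nearest the J cluster (TRAV6-5 to TRAV21-DV12), 52.0 to 56.7% per library used one of the 15 J segments nearest the V cluster (TRAJ58 to TRAJ39), and 7.47 to 9.28% used one of the 14 farthest (TRAJ21 to TRAJ2). Of chains on the 30 farthest V genes, 17.1 to 20.4% used the nearest J segments and 33.5 to 37.8% the farthest. The 29 V genes between them did not lie between these values, with 13.3 to 17.5% on the nearest and 35.4 to 40.7% on the farthest J segments. Relative to the products of the margins, near V with near J was 1.72 to 1.84 times as frequent and near V with far J 0.297 to 0.344 times. In all 7 libraries the V genes nearest the J cluster differed from the other V genes in this way. Spearman's rank correlation of V order, counted toward the J cluster, with J order, counted away from the V cluster, was -0.406 to -0.433 over the chains of a library. Over the 1019 to 2063 chains per library on V genes without a near-identical copy it was -0.509 to -0.556. Chains of 1 library share its preparation and depth, and the correlations are given as descriptions.

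The change along the locus was concentrated at its J-proximal end. TRAV21-DV12, the last V gene with chains before the J cluster, had a mean J order of 6.73 over 321 chains, where TRAJ58 is 1 and TRAJ2 is 43. TRAV19 had 8.10 and TRAV4-4-DV10 12.18. Farther upstream the mean stayed above 20 for TRAV9-1 (22.20), TRAV11 (23.14), TRAV3N-3 (28.20), TRAV12D-3 (27.59), TRAV6-1 (27.67) and TRAV1 (26.24). Of the 3784 possible V-J pairs, 3055 (80.7%) were seen at least once and 524 in all 7 libraries.

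**Figure D2:**
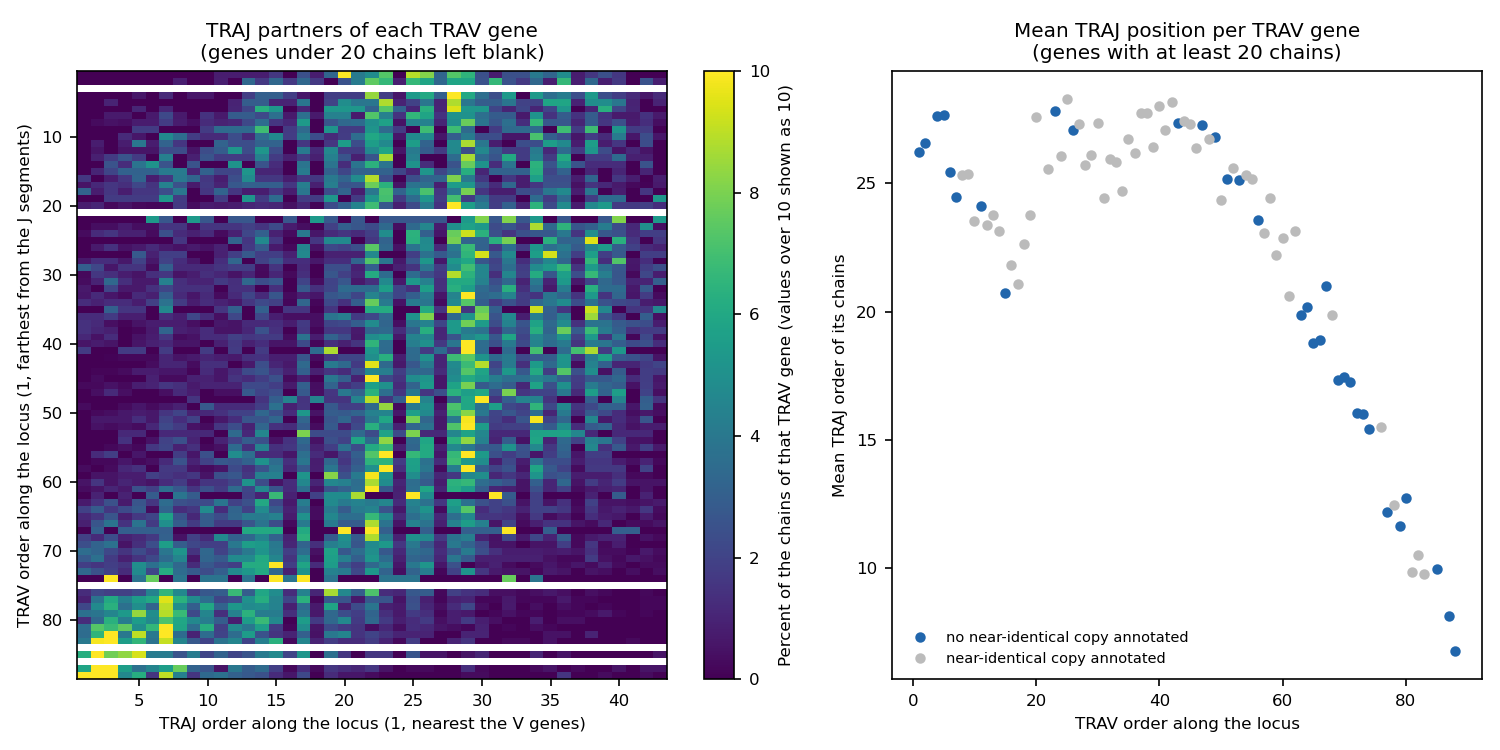
Left, the percent of the chains of each TRAV gene (rows, in order toward the J cluster) on each TRAJ segment (columns, in order away from the V cluster), all libraries pooled. Right, the mean TRAJ order of the chains of each TRAV gene with at least 20 chains, which falls to 6.73 at the J-proximal end. Blue marks V genes without a near-identical annotated copy.

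In cells that carried 2 alpha chains, the J segments of both lay near each other. There were 2674 cells with 2 productive alpha chains and 1 beta chain, the receptor chain that pairs with alpha. Spearman's rank correlation between the J orders of both chains was 0.666 over all of them and 0.612 to 0.734 by library. Their J segments lay within 5 positions of each other in 51.2% of cells, against 27.5% for any 2 chains of these cells, and were the same segment in 6.66% against 3.01%. Each chromosome carries its own J cluster, so the chains of a cell come from separate rearrangements. A droplet that held 2 cells could also give 2 alpha chains, and no doublet caller was run.

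The join itself added few bases. After the germline ends of V and J were matched to each CDR3, 2.66 to 2.80 bases per chain remained in the libraries on average, and 14.9 to 16.9% of chains had none. These remaining bases are called added here, whatever their origin. Mean trimming was 2.09 to 2.13 bases from the V end and 2.97 to 3.09 from the J end. Chains found in at least 2 libraries more often had no added base than those of 1 library. Of 26894 distinct chains (V, J and CDR3 nucleotides), 1268 (4.71%) occurred in at least 2 libraries. The share without an added base was 11.5% among chains of 1 library, 39.8% of those in 2, 59.8% of those in 3 and 72.7% of the 44 in 4. It was 62.5% of the 8 in 5 and 60% of the 5 in 6. Among the 4 chains present in all 7 libraries, 3 had no added base. They are printed with the bases that matched neither germline end in capitals, and the first of them stands apart with 4 such bases.
TRAV12D-3 with TRAJ23, 25 chains: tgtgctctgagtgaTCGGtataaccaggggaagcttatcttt
TRAV14N-2 with TRAJ22, 24 chains: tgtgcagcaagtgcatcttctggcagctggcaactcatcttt
TRAV14N-3 with TRAJ22, 24 chains: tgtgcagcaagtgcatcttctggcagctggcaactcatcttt
TRAV3N-3 with TRAJ22, 14 chains: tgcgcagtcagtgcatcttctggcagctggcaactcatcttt

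CD8 and CD4 cells of the same libraries differed in their V genes. The comparison used 11449 chains of CD8 cells and 3518 of CD4 cells, with the library as a block in the edgeR quasi-likelihood test. Of 45 TRAV genes with enough chains, 24 (53.3%) passed an adjusted p under 0.05, 11 higher in CD8 and 13 higher in CD4 cells. A V gene or J segment could pass the filter for enough chains through 1 lineage alone. TRAV16D-DV11 held at most 0.838% of the CD4 chains of a library (17 chains in all), and TRAV5N-4 at most 0.828% of the CD8 chains. The share called holds only for genes that entered the test in this way. In 18 of the 24 the direction was the same in 7 of 7 libraries, and in none in fewer than 5. DESeq2 called 19 TRAV genes and kept 18 of these 24, as did edgeR with other size factors (TMM or RLE). With 1 library left out edgeR called 19 to 24. The gates come from Cd4 and Cd8 transcripts, which the segment calls do not use.

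The TRAV12 and TRAV16 families were on the CD8 side. TRAV12D-3 took 4.64 to 6.66% of the CD8 chains of a library (median 5.95%) and 0.451 to 2.23% of the CD4 chains (median 1.59%), and the ranges did not overlap. Its log2 fold change, CD8 over CD4, was 2.13 (SE 0.17), with an edgeR adjusted p of 2.7e-27. All 3 TRAV16 genes with chains were called, TRAV16D-DV11 with a log2 fold change of 1.80 (SE 0.38), TRAV16 with 1.43 (SE 0.21) and TRAV16N with 1.37 (SE 0.17). As a family TRAV16 held 8.29% ± 1.02 (SD, n = 7) of CD8 and 2.77% ± 0.91 of CD4 chains, higher in CD8 cells in 7 of 7 libraries. The TRAV12 family held 16.4% ± 0.89 against 8.60% ± 1.18, also in 7 of 7. Of its 5 tested members 3 were called, TRAV12D-3, TRAV12-2 (log2 fold change 1.31) and TRAV12-1 (1.05). Others higher in CD8 cells were TRAV9N-3 (1.69), TRAV3N-3 (1.13), TRAV19 (0.80), TRAV8N-2 (0.78) and TRAV13-1 (0.51).

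The TRAV14 and TRAV4 families, which antibodies know as V alpha 2 and V alpha 11, were on the CD4 side. TRAV14 held 9.38% ± 0.74 (SD, n = 7) of CD8 and 15.01% ± 2.81 of CD4 chains and was higher in CD4 cells in 7 of 7 libraries. Of its 7 members 5 were called, each higher in CD4 cells, from TRAV14D-3-DV8 (log2 fold change -1.37, SE 0.22) to TRAV14N-1 (-0.58). TRAV4 held 4.32% ± 0.24 against 8.46% ± 0.96, again in 7 of 7, and 2 of its 3 tested members were called, TRAV4N-4 at -1.37 (SE 0.24) and TRAV4-4-DV10 at -1.32 (SE 0.23). Those genes share the last 60 germline bases shown for TRAV4N-4. TRAV9-1 had the largest difference of the genes higher in CD4 cells. It took 0.350 to 0.996% of CD8 chains (median 0.893%) and 1.55 to 2.76% of CD4 chains (median 1.98%), and the ranges did not overlap. Its log2 fold change was -1.57 (SE 0.21). TRAV5N-4 (-1.38), TRAV7D-2 (-0.998), TRAV9N-4 (-0.75), TRAV7-4 (-0.69) and TRAV6-5 (-0.57) were the others.

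The TRAV9 family, known as V alpha 3, was split, with 3 of its 5 tested members called. TRAV9N-3 was higher in CD8 cells, TRAV9-1 and TRAV9N-4 were higher in CD4 cells, and the family as a whole was higher in CD8 cells in 3 of 7 libraries. Near-identical copies stood behind 15 of the 24 calls. In another setting, genes whose names differ only in D, N or DV were summed before the test, whether or not they reach 98% identity. The log2 fold changes were then 1.42 (SE 0.15) for TRAV12-3, 1.47 (SE 0.15) for TRAV16 and 1.69 (SE 0.22) for TRAV9-3. They were -1.35 (SE 0.13) for TRAV4-4 and -1.52 (SE 0.25) for TRAV9-1. Several merged values were nearer 0 than that of a called gene alone. The value of 1.42 for TRAV12-3 compares with 2.13 for TRAV12D-3 alone, the largest V difference, and 1.47 for TRAV16 with 1.80 for TRAV16D-DV11 alone. TRAV12-3 matched TRAV12D-3 at 97.6%, below the limit for a near-identical copy, and had a log2 fold change of 0.10 alone. Merging gave 0.68 for TRAV12-2 against 1.31, 0.50 for TRAV12-1 against 1.05, and -0.72 for TRAV5-4 against -1.38 for TRAV5N-4 alone. These were still called, and TRAV6-5 was farther from 0 at -0.88 against -0.57.

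J segments differed between CD8 and CD4 cells by less. Of 39 tested, 17 (43.6%) were called, 10 higher in CD8 and 7 higher in CD4 cells, while DESeq2 called 15 and edgeR with 1 library left out 15 to 17. TRAJ45 took 1.95 to 3.06% of CD8 and 0.226 to 1.37% of CD4 chains (log2 fold change 1.29, SE 0.25), TRAJ22 6.32 to 8.57% and 2.21 to 6.09% (0.95, SE 0.17). On the CD4 side TRAJ27 took 2.16 to 3.36% of CD8 and 3.61 to 7.77% of CD4 chains (-0.87, SE 0.14). For these 3 the ranges over libraries did not overlap, and for the other 14 they did. TRAJ47 (1.26), TRAJ26 (0.75), TRAJ7 (0.63), TRAJ49 (0.59), TRAJ30 (0.59), TRAJ33 (0.58), TRAJ12 (0.45) and TRAJ23 (0.42) were the others higher in CD8 cells. TRAJ31 (-0.89), TRAJ44 (-0.88), TRAJ39 (-0.86), TRAJ42 (-0.77), TRAJ37 (-0.73) and TRAJ34 (-0.73) were higher in CD4 cells. Some calls were lost when 1 library was left out. The call of TRAJ33 was lost without WT replicate 2 (0.24, edgeR adjusted p = 0.345), that of TRAJ23 without het replicate 1, that of TRAJ7 without het replicate 2 or homo replicate 2, and that of TRAJ12 without any of WT replicate 2, het replicate 2 or homo replicate 2. Among V genes TRAV14N-3 lost its call without WT replicate 2 (-0.38 against -0.63), as did TRAV13-1 and TRAV14-2, and TRAV9N-4 did without het replicate 1. TRAV19 lost it without any 1 of 3 libraries (het replicates 1 and 2, homo replicate 2), TRAV7-4 likewise (het replicates 1 and 3, homo replicate 2), TRAV8N-2 without any 1 of 4 (WT replicate 2, het replicates 1 and 3, homo replicate 2) and TRAV6-5 without any 1 of 5 (all but WT replicate 1 and het replicate 2, -0.38 at the least). The 17 J segments were spread along the cluster, from the 7th position (TRAJ49) to the 39th (TRAJ7).

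The CDR3 was longer in CD8 cells in each of the 7 libraries, at 40.98 ± 0.07 against 40.45 ± 0.25 bases (SD, n = 7). The difference of 0.52 bases had p = 0.0156 in an exact two-sided sign-flip permutation test, the smallest p that 7 libraries allow, and 0.0781 after adjustment over the 5 measures compared. Mean J order was higher in CD8 cells by 0.57 positions (6 of 7 libraries, exact p = 0.0938), mean V order lower by 0.42 (exact permutation p = 0.594), and the D and N copy share higher by 2.18 percentage points (6 of 7 libraries, exact permutation p = 0.219). The rank correlation of V with J order was -0.411 ± 0.023 in CD8 and -0.401 ± 0.069 in CD4 cells (exact permutation p = 0.703). The gate bears on these calls. With 2 UMIs asked of each gate, 8 of the called TRAV genes and 12 of the called TRAJ segments could still be tested, 6 and 6 of them were called, and none changed direction.

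**Figure D3:**
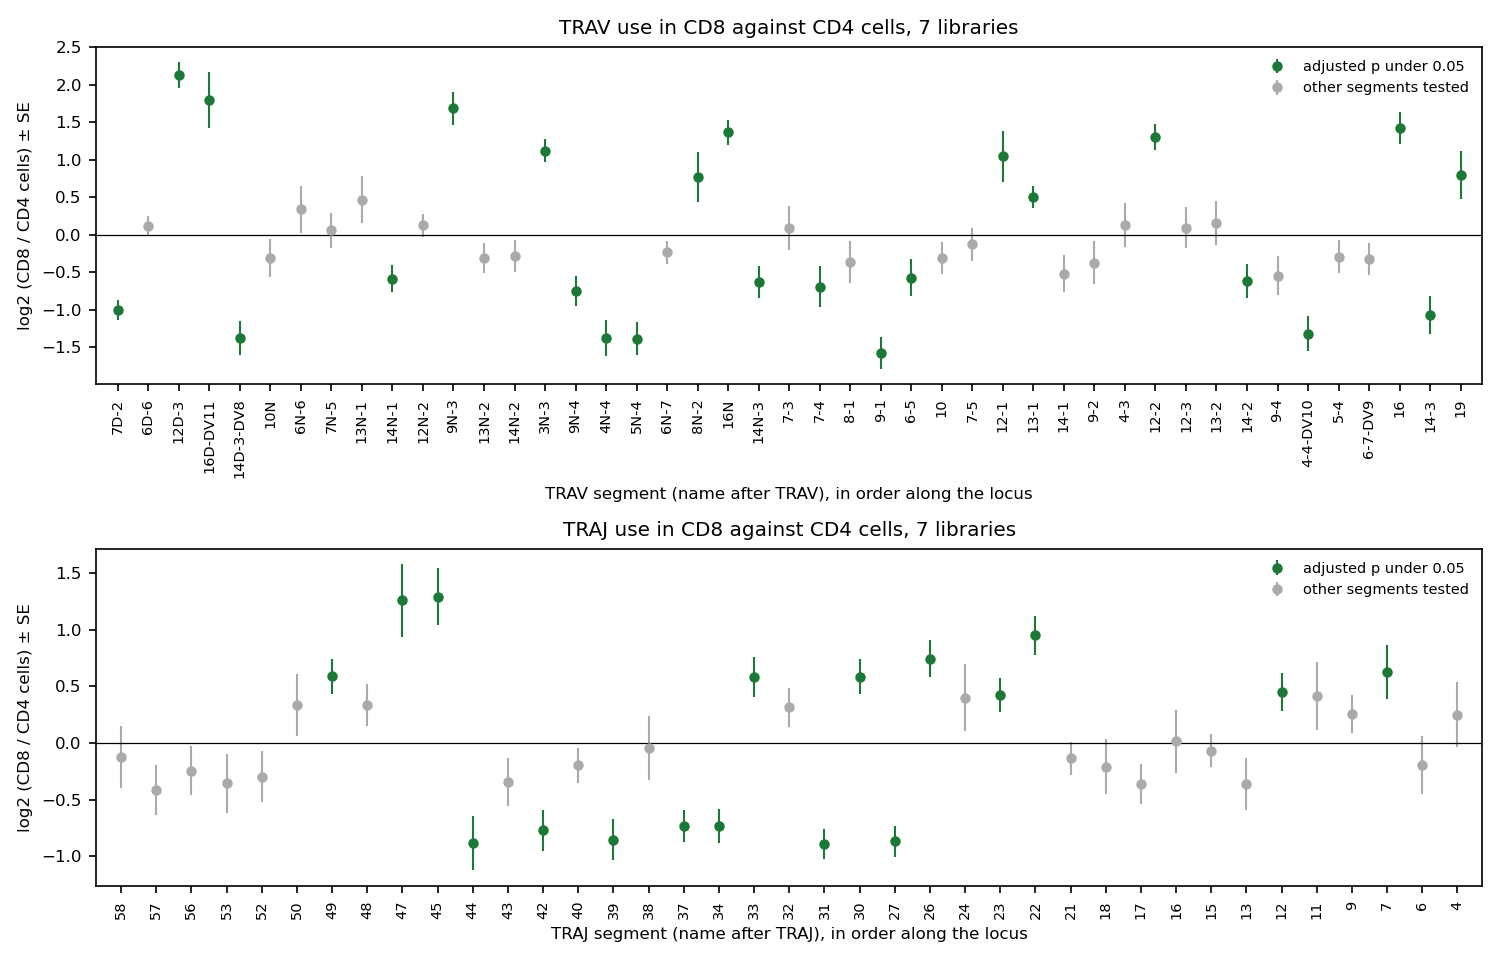
TRAV (top) and TRAJ (bottom) segment use in CD8 against CD4 cells, as log2 fold change by edgeR with the library as a block, in order along the locus. Bars are standard errors and green points passed an adjusted p under 0.05, 24 TRAV and 17 TRAJ.

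Between genotypes the V repertoire showed no call. Of 78 TRAV genes tested over all chains, none (0%) passed in homo against WT, het against WT or homo against het in edgeR, with 6, 6 and 1 at an unadjusted p under 0.05, and none passed in DESeq2. TRAV12D-3 had the lowest p in homo against WT. It took 2.92 and 3.46% of the chains of WT libraries, 4.48, 3.70 and 3.67% of those of het libraries and 4.70 and 4.29% of those of homo libraries, and each mutant library was above both WT libraries, with a log2 fold change of 0.47 (SE 0.12) and an edgeR adjusted p of 0.155. TRAV12D-3 was also higher in CD8 than in CD4 cells (log2 fold change 2.13). Within CD8 cells its log2 fold change against WT was 0.26 (SE 0.18, edgeR adjusted p = 0.577) in homo. In het it was 0.17 there (SE 0.17, edgeR adjusted p = 0.839). Within CD8 cells 59 TRAV genes could be tested and none (0%) passed in edgeR or DESeq2, with 6, 4 and 1 at an unadjusted edgeR p under 0.05 in the 3 contrasts. Within CD4 cells it was none (0%) of 21, with 0, 0 and 1. The CD8 to CD4 ratio of a V gene did not pass for any (0%) of 56 in homo or het against WT, with 1 and 0. In CD4 cells the median SE in homo against WT was 0.52 on the log2 scale, so that only large differences could have been detected. In the expression libraries 53 Trav genes could be tested, and none (0%) was called by edgeR or DESeq2 in any contrast, with 2, 2 and 0 at an unadjusted edgeR p under 0.05, while of all 10475 genes 335 (3.2%) were called in homo against WT, 169 (1.61%) in het against WT and 1 (0.00955%) in homo against het.

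Of the J segments, 2 were called in homo against WT (4.65% of 43), 1 in het against WT (2.33%) and none (0%) in homo against het, where 1 had an unadjusted edgeR p under 0.05. TRAJ37 fell. It took 3.86 and 4.14% of the chains of WT libraries, 3.61, 3.63 and 3.09% of those of het libraries and 2.98 and 2.84% of those of homo libraries. The groups did not overlap, and the log2 fold change in homo against WT was -0.47 (SE 0.12, edgeR adjusted p = 0.00638). TRAJ47 rose. Its shares were 0.760 and 0.943% in WT, then 1.49, 1.40 and 1.33% in het, and lastly 1.54 and 1.28% in homo, so that both mutant groups lay above WT and overlapped each other, with log2 fold changes of 0.70 (SE 0.20, edgeR adjusted p = 0.0139) in homo and 0.67 (SE 0.19, edgeR adjusted p = 0.0252) in het. DESeq2 called neither segment in either contrast. Without WT replicate 2 edgeR called none, and TRAJ47 in homo was also lost without WT replicate 1 or homo replicate 1. The call of TRAJ47 in het was kept only without het replicate 2, and was lost when any of the other 6 libraries was left out, with log2 fold changes of 0.57 to 0.88. These segments also differed between CD8 and CD4 cells, TRAJ47 higher in CD8 and TRAJ37 in CD4 cells, and the share of CD8 among gated cells was 72.5 and 70.7% in WT, was 68.7, 75.6 and 87.7% in het, and was 90.2 and 79.2% in homo. The highest of these shares were in the 2 shallowest expression libraries, het replicate 3 and homo replicate 1 (medians of 438 and 462 UMIs), where 4.65 and 4.08% of barcodes with an alpha chain had a Cd4 UMI, against 11.9 to 26.1% in the others, and the part of depth was not tested. Within CD8 cells the log2 fold changes in homo against WT were -0.52 (SE 0.22) for TRAJ37 and 0.75 (SE 0.31) for TRAJ47, and none (0%) of 43 J segments was called there by edgeR or DESeq2 (edgeR adjusted p = 0.290 for both), with 5 at an unadjusted edgeR p under 0.05.

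The mean position of J along the cluster moved with genotype. Mean J order, where a lower value is nearer the V genes, was 22.29 and 22.43 in WT, then 22.06, 22.05 and 21.95 in het, and lastly 21.90 and 21.71 in homo, without overlap between the 3 groups. Homo was lower than WT by 0.55 of 1 position. Whether the values were ordered from WT through het to homo was asked with the Jonckheere-Terpstra statistic in a two-sided exact permutation test, which gave p = 0.00952, the smallest of its 210 arrangements, and 0.0333 after adjustment over 7 measures. The shares by part of the cluster lay as follows. The 15 J segments nearest the V genes took 30.3 and 29.2% of the chains of WT libraries, 30.9, 30.7 and 32.1% of those of het libraries and 31.8 and 32.3% of those of homo libraries. The 14 farthest took 27.4 and 28.2%, 26.7, 26.2 and 26.8%, and 26.5 and 25.2%. In homo against WT, 11 of the 15 nearest and 2 of the 14 farthest segments had a higher share, against 22 of all 43.

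Within the gates the order did not pass after adjustment. In CD8 cells mean J order was 22.53 and 22.96 in WT, then 22.35, 22.29 and 21.83 in het, and lastly 21.74 and 21.85 in homo (exact permutation p = 0.0286, adjusted 0.143 over 10 values). In CD4 cells it was 22.18 and 21.93, 21.38, 20.63 and 22.65, and 21.67 and 21.09 (exact permutation p = 0.438). With chains on V genes without a near-identical copy the difference was -0.46 positions and the exact permutation p 0.276, and in cells with 1 alpha and 1 beta chain it was -0.37 positions with an exact permutation p of 0.0762. The other measures did not pass: mean V order (exact permutation p = 0.152), the rank correlation of V with J order (0.648), the D and N copy share at 53.2, 53.9 and 55.0% by group (0.0762) and CDR3 length at 40.75, 40.78 and 40.75 bases (0.876).

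The invariant chains were rare, and the share of TRAV11 with TRAJ18 fell from WT through het to homo. TRAV11 with TRAJ18 was found in 4 and 8 cells of the WT libraries, 3, 2 and 2 cells of the het libraries, and 1 and 1 cells of the homo libraries. As shares of cells with an alpha chain these were 0.135 and 0.146% in WT, then 0.0941, 0.0758 and 0.0469% in het, and lastly 0.0224 and 0.0281% in homo, without overlap between the groups. The exact permutation p was 0.00952, again the smallest possible, and 0.0333 adjusted over 7 measures. Summed over libraries, 12 of 8455 cells carried the chain in WT (0.142%, Wilson 95% interval 0.0812 to 0.248%), 7 of 10088 in het (0.0694%, 0.0336 to 0.143%) and 2 of 8027 in homo (0.0249%, 0.00683 to 0.0908%). These intervals cover counting error only. TRAV1 with TRAJ33 was found in 3 and 4 WT cells, 3, 1 and 2 het cells, and 1 and 0 homo cells. For 0 of 3563 cells the Wilson 95% interval reaches 0.108%. The exact permutation p of TRAV1 with TRAJ33 was 0.0286 and 0.0667 adjusted, which did not pass, and het overlapped WT. None of the 4 separate segments was called by edgeR, and their log2 fold changes in homo against WT were -0.20 (SE 0.37) for TRAV11, -0.08 (SE 0.16) for TRAJ18, 0.01 (SE 0.31) for TRAV1 and 0.13 (SE 0.14) for TRAJ33. With het replicate 3 and homo replicate 1 left out, the invariant share of TRAV11 with TRAJ18 was lower in homo than in WT by 0.112 percentage points (exact permutation p = 0.0667, the smallest that 5 libraries allow). Counted once per distinct chain, the share was lower by 0.0662 points. Of the 21 cells with TRAV11 and TRAJ18, 20 fell in neither the CD4 nor the CD8 gate. With CD8 and CD4 cells at equal weight the differences in homo against WT were 0 points for TRAV11 with TRAJ18, whose 1 gated cell was in het, and -0.00731 points for TRAV1 with TRAJ33, on 3 gated cells.

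**Figure D4:**
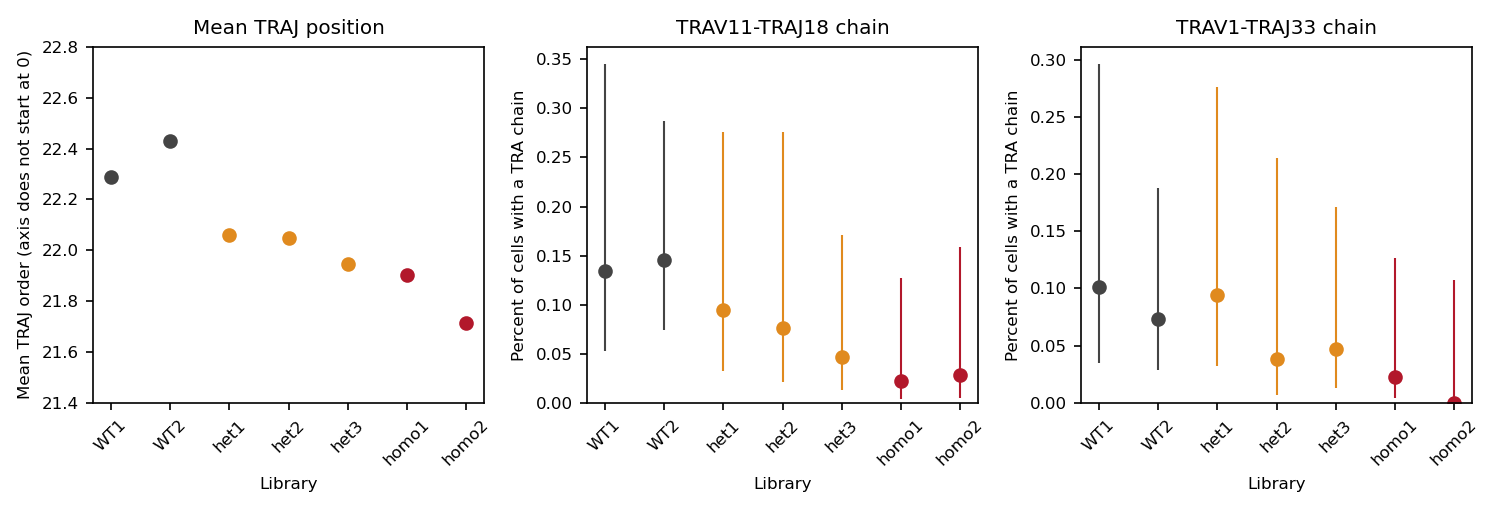
Mean TRAJ order (left) and the percent of cells with a TRAV11-TRAJ18 chain (middle) or a TRAV1-TRAJ33 chain (right) in each library, coloured by genotype. Bars in the middle and right plots are Wilson 95% intervals and overlap between groups, while the points run from 0.146% in WT to 0.0224% in homo in the middle plot.

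The junctions of TRAV11 with TRAJ18 were nearly fixed, and those of TRAV1 with TRAJ33 less so. Of 21 chains of TRAV11 with TRAJ18, 20 had a CDR3 of 45 bases, against 15.9% of the 82 other TRAV11 chains and 35.8% of the 520 other TRAJ18 chains. Only 7 nucleotide sequences were found, and the 4 most common are shown with the bases that matched neither germline end in capitals.
TRAV11-TRAJ18, 8 chains in 4 libraries: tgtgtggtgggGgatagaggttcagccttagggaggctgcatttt
TRAV11-TRAJ18, 5 chains in 3 libraries: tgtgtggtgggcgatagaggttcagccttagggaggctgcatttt
TRAV11-TRAJ18, 3 chains in 3 libraries: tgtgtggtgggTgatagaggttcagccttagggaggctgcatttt
TRAV11-TRAJ18, 2 chains in 2 libraries: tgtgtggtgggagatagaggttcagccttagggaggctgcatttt
These sequences differ at 1 base, the last of a glycine codon, so all 4 encode the same loop, found in 18 chains of 7 libraries. The 14 chains of TRAV1 with TRAJ33 had 5 nucleotide sequences, and 12 of the chains had 36 bases. The only homo chain, with 33 bases, and the chains of het replicate 3 did not have the most common sequence. That sequence, without an added base, was found in 9 chains from 4 libraries.
TRAV1-TRAJ33, 9 chains in 4 libraries: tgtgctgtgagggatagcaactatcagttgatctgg

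Transcripts, which the rule did not use, are given for these cells as a description. Zbtb16, the transcription factor PLZF of innate-like T cells, had a UMI in 8 of 21 cells with TRAV11-TRAJ18 and in 3 of 13 with TRAV1-TRAJ33, against 3 of 25113 other alpha-chain cells (0.0119%) and 0 of 7528 B cells. Median depths were 1290, 881, 1080 and 883 UMIs. Cxcr6, a chemokine receptor of tissue-resident T cells, had a UMI in 10 of 21 and 6 of 13 cells, against 5.84% of the others and 0.0930% of B cells. With each cell thinned to 400 UMIs, Zbtb16 was left in 3 of 21, 1 of 12 and 1 of 22315 cells and Cxcr6 in 5 of 21, 4 of 12 and 1.71%. Il2rb, a receptor chain for IL-2 and IL-15, had a UMI in 8 of 21 and 4 of 13 cells, against 14.5% of other alpha-chain cells. After thinning it was left in 3 of 21 and 0 of 12 cells, against 5.24% of the others. Klrb1c, which encodes NK1.1, had a UMI in 1 of 21 and 0 of 13, with no share among other cells given for comparison. No cell with either chain had a Cd4 UMI, and 20 of 21 cells with TRAV11-TRAJ18 had no gate. The planned test over libraries could not be made, because only WT replicate 2 had at least 5 cells with TRAV11-TRAJ18.

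The most used pair of all, TRAV12D-3 with TRAJ23, was less used in WT. It comes first of the 5 most used pairs by its mean over all 7 libraries, 5 of them mutant. It took 0.152 and 0.265% of the chains of WT libraries, 0.705, 0.616 and 0.581% of those of het libraries and 0.612 and 0.678% of those of homo libraries, and each mutant library exceeded both WT libraries while het and homo overlapped. Of the 25 pairs with enough chains to test, 1 (4% of those tested) was called in each contrast with WT, this one, with log2 fold changes of 1.498 (SE 0.27, edgeR adjusted p = 0.000297) in homo and 1.47 (SE 0.26, edgeR adjusted p = 0.000192) in het. The pair entered the tested set through the mutant libraries. The filter asked for at least 0.251% of chains in 2 libraries, which 1 of the 2 WT libraries and all 5 mutant libraries reached, and its WT mean of 0.208% was below those of the other 4 of the 5 most used pairs (0.290 to 0.400%). Without a filter, an alternative chosen after seeing the data, 1 of 3055 pairs was called in each contrast, again this one (edgeR adjusted p = 0.0363 in homo and 0.0234 in het). The call was lost with another tool and without some libraries. DESeq2 gave similar log2 fold changes, 1.46 and 1.44, with adjusted p of 0.450 and 0.812, and without WT replicate 1 edgeR gave adjusted p of 0.0705 and 0.0632 with 94 pairs tested. Without homo replicate 2 the adjusted p in homo was 0.129. Counted once per distinct chain and library, the shares were 0.155 and 0.189% in WT, then 0.319, 0.403 and 0.421% in het, and lastly 0.307 and 0.364% in homo. The other 4 of the 5 most used pairs were TRAV6D-6 with TRAJ31, TRAV14N-3 with TRAJ22, TRAV7D-2 with TRAJ22 and TRAV12D-3 with TRAJ31, and edgeR and DESeq2 called none of these. Of the exact permutation tests of the order WT, het, homo run on the 5 pairs, TRAV12D-3 with TRAJ23 had an unadjusted p of 0.152. TRAV6D-6 with TRAJ31 took 0.487 and 0.314% of chains in WT, then 0.282, 0.308 and 0.270% in het, and lastly 0.237 and 0.201% in homo. The 3 groups did not overlap, with an unadjusted exact permutation p of 0.00952 (the smallest possible) and an edgeR log2 fold change in homo against WT of -0.76 (SE 0.34, edgeR adjusted p = 0.273). TRAJ31 was higher in CD4 than in CD8 cells (log2 fold change -0.89), and the pair had 33 chains in CD8 and 15 in CD4 cells. The part of the mix of CD8 and CD4 cells in this fall was not tested.

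TRAV12D-3 with TRAJ23 was found in CD8 cells. Of its 150 chains 108 were in CD8 cells and 0 among the 3518 chains of CD4 cells, where 3 chains would be a share of 0.0853%. Within CD8 cells it took 0.0875 and 0.654% of the chains of WT libraries, 1.33, 1.15 and 0.893% of those of het libraries and 1.05 and 1.24% of those of homo libraries. Chains of TRAV12D-3 with other J segments were 2.77 and 3.19% in WT, then 3.78, 3.08 and 3.09% in het, and lastly 4.09 and 3.61% in homo, and those of TRAJ23 with other V genes were 3.92 and 4.07%, 4.57, 4.48 and 4.23%, and 3.91 and 4.37%. With other J segments both homo libraries were above both WT libraries and het overlapped each group, and for TRAJ23 with other V genes WT and homo overlapped.

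Within the pair 1 amino acid loop recurred. Of all 25282 combinations of V, J and translated CDR3, the most frequent was TRAV12D-3 with TRAJ23 and a CDR3 of 42 bases, with 90 chains in 7 libraries. It was found in 1 and 8 chains in the WT libraries, 18, 11 and 15 in the het libraries and 20 and 17 in the homo libraries, that is in 0.0304 and 0.132%, 0.508, 0.376 and 0.311%, and 0.395 and 0.427% of chains. As this sequence was chosen for its count, these values are a description. The 90 chains had 6 nucleotide forms, which differ in the codon in capitals.
32 chains in 6 libraries: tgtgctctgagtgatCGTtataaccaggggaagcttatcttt
25 chains in 7 libraries: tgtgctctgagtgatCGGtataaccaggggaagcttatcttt
21 chains in 6 libraries: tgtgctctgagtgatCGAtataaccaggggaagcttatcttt
8 chains in 5 libraries: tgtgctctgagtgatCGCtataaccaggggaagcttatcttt
3 chains in 3 libraries: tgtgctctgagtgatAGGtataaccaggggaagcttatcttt
1 chain in 1 library: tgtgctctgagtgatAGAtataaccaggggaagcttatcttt
These are the 6 codons of arginine, so the loop was the same in each. The 90 chains were paired with 88 different beta chains of 19 TRBV genes, and 75 were in CD8 cells. The next most frequent combination, TRAV14N-2 with TRAJ22, had 32 chains in 7 libraries, at 0.0608 and 0.0662% in WT, then 0.113, 0.103 and 0.145% in het, and lastly 0.178 and 0.0753% in homo.

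**Figure D5:**
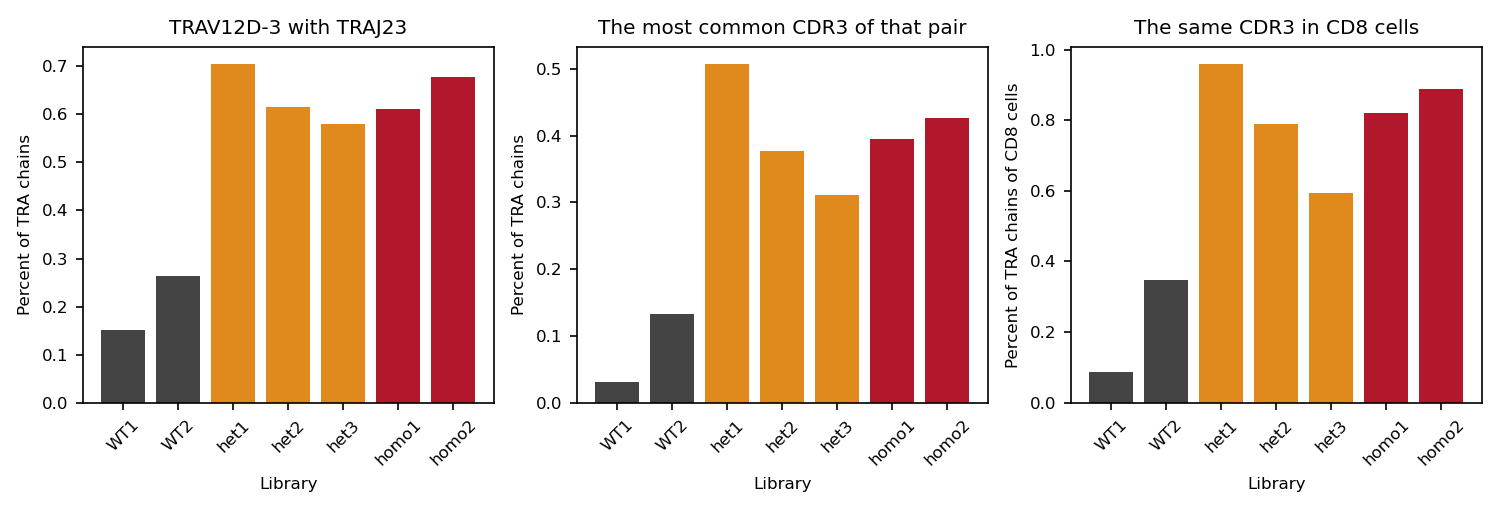
Percent of alpha chains with TRAV12D-3 and TRAJ23 (left), with the most common CDR3 of that pair (middle) and with that CDR3 among chains of CD8 cells (right), 1 bar per library. The 2 WT bars are the lowest in each plot, at 0.152 and 0.265% on the left.

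Transcripts of memory and naive cells were compared between CD8 cells with and without this pair. Ccl5, a chemokine of memory and effector CD8 cells, had a UMI in 56.5% of the 108 cells with the pair and in 28.0% of 10103 other CD8 cells, with medians of 1558.5 and 1400 UMIs, against 0.186% of B cells. With each cell thinned to 400 UMIs the shares were 39.0 and 19.96%. Ccl5 was higher in cells with the pair in 6 of 7 libraries, the exception being WT replicate 1 with 1 such cell. By library, it was seen in 26.7% of cells with the pair and 7.40% of others in WT replicate 2, 48.0 and 37.4%, 68.8 and 29.1%, and 58.3 and 28.9% in het, and 50.0 and 39.3%, and 85.7 and 47.7% in homo. Il2rb, the receptor chain for IL-2 and IL-15 that signals through STAT5, had a UMI in 41.7% against 23.8% before thinning and 9.52% against 7.16% after it. By library with at least 5 cells of the pair it was higher in 5 of 6, and in homo replicate 1 it was lower, at 5.56% against 13.7%. Cd44 and Cxcr3, also of memory cells, were higher in cells with the pair in 4 of 7 libraries each. Among B cells the shares were 0.106% for Il2rb, 2.90% for Cd44, 0.120% for Cxcr3 and 12.9% for Ccr7, which B cells also use, at a median of 883 UMIs. Ccr7, a homing receptor of naive cells, was seen in 27.8% against 34.0% before thinning and 3.81% against 10.7% after it, and was lower in cells with the pair in all 6 libraries that had at least 5 of them. These differences are descriptions, since the cells of a library are not replicates, and the shares over all libraries mix them unequally, with WT replicate 2 giving 15 of the 108 cells with the pair and 2053 of the 10103 others. Ccl5 among the other CD8 cells was itself higher in each mutant library than in both WT libraries, at 7.40 to 7.89% in WT and 28.9 to 47.7% in the mutants, and its part in the difference in pair use was not tested.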

How the data were processed

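TCR libraries of 7 lymph node samples were analysed with the expression libraries of the same samples. The deposited contig tables list assembled receptor contigs with their gene segments and UMI counts, and the expression matrices hold raw UMI counts per gene and barcode, both made by the authors in Cell Ranger. The labels give version 5.0, the mm10 build and a 3′ kit, and the study's methods version 6.0, GRCm38 and a 5′ kit with TCR enrichment. Segment names are those of the authors' aligner, which had to choose between near-identical copies. Here each productive TRA row was counted as 1 chain. Members, lists and measures were chosen with earlier results of these data known.

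Expression barcodes with fewer than 200 genes or over 10% mitochondrial UMIs were dropped, and doublets were not called. Barcodes with both Cd4 and Cd8a or Cd8b1 UMIs (0.123 to 1.74%) had no gate. B cells were barcodes with at least 3 UMIs of Cd79a and Ms4a1, none of Cd3e or Cd3d and no contig. Some planned markers are not reported here. Chains per segment were tested with edgeR 4.0.16 (quasi-likelihood, filterByExpr, the chain total as library size, Benjamini-Hochberg over all segments tested, R 4.3.3) and, as an alternative, DESeq2 1.42.0, and the tests were checked on simulated counts. Segments had to pass filterByExpr, which left out 10 TRAV genes and no TRAJ segment over all chains. Values per library were compared with exact permutation tests (Python 3.11.15). Alternatives were size factors, a filter of 3 UMIs per chain, distinct chains, cells with 1 TRA and 1 TRB chain, copies merged by name, other gates, a replicate block and each library left out. Text names up to 10 called segments in each direction, the invariant segments, the TRAV14, TRAV9 and TRAV4 families, the most used segments and pairs and the outermost J segments with chains.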

Additional observations from a re-analysis of the deposited data

How the results depend on the processing

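Depth limits what could be seen: 161 CD4 cells in homo replicate 1 and 21 cells with TRAV11-TRAJ18 over all libraries leave small differences undetectable, the shallow expression of het replicate 3 and homo replicate 1 leaves many of their cells ungated, and the placement of chains on near-identical V copies was not tested. The cause of each change listed here was not tested.

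Counted over each named segment or pair under each alternative, 616 values kept their direction and side of the threshold and 87 kept the direction but lost the call. Of the summary counts and differences under each alternative, 559 kept both (counts within 1.5 times), 44 moved further, 16 lost a pass of the threshold, 8 gained one and 11 reversed. For TRAV over all chains homo against WT had 1 call in cells with 1 TRA and 1 TRB chain and 0 to 1 when a library was left out. Within CD8 cells TRAV had 1 call in homo against WT in cells with 1 TRA and 1 TRB chain and, in het against WT, 1 with distinct chains, 1 with at least 3 UMIs per chain and 0 to 1 without a library, as did homo against het (0 to 1). For TRAJ over all chains the 2 calls in homo against WT became 0 in DESeq2, 1 with 1 TRA and 1 TRB chain, 1 with 3 UMIs, 0 with an absolute log2 fold change over 1 and 0 to 2 without a library, and the 1 in het against WT became 0 in DESeq2, with 3 UMIs and with the fold limit, and 0 to 1 without a library. TRAJ had 1 call within CD8 cells in homo against WT with the gate of 2 UMIs, 2 within CD4 cells in het against WT with 3 UMIs, and 1 in the lineage ratio with 3 UMIs and 0 to 1 without a library. Without a filter on low counts 1 Trav gene passed in the expression libraries. The pair test gave 0 calls in DESeq2 and 0 to 1 without a library. CD8 against CD4 gave 6 TRAV and 6 TRAJ calls with the gate of 2 UMIs, and 14 and 2 with the fold limit. The gate of 2 UMIs left too few chains for a fit within CD4 cells.

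The difference in mean TRAJ order, homo minus WT, was -0.37 with 1 TRA and 1 TRB chain (exact permutation p = 0.0762), -0.81 with CD8 and CD4 cells at equal weight (exact permutation p = 0.0762) and -0.46 on V genes without a copy. The invariant NKT chain share (TRAV11-TRAJ18) was 0 at equal weight, where 1 gated cell remained, -0.0662 with distinct chains (exact permutation p = 0.00952), -0.112 without het replicate 3 and homo replicate 1, chosen after seeing the data, and -0.121 to -0.109 without 1 library. The share of TRAV1-TRAJ33 was -0.0224 with distinct chains, -0.00731 at equal weight and -0.0897 to -0.0618 without a library. The D and N copy share rose by 1.57 points with the expression filter (exact permutation p = 0.0286). The sign turned for the rank correlation of V with J order with 3 UMIs (-0.00864), on bases (-0.00374) and without a library (-0.00150 to 0.0216), and for CDR3 length with 3 UMIs (0.00838), with the expression filter (0.00429) and without a library (-0.0728 to 0.0644).

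Of the CD8 minus CD4 differences, mean TRAJ order was 0.365 when the CD4 side was every passing cell without a Cd8a or Cd8b1 UMI, an alternative chosen after seeing the data, and 0.392 to 0.805 without a library. Mean TRAV order was -4.38 with the gate of 2 UMIs, -0.831 on the changed CD4 side and -1.01 to -0.0466 without a library. The D and N share was 10.1, 2.80 and, without a library, 1.29 to 3.60 points. CDR3 length was 0.366 bases with the gate of 2 UMIs. That rank correlation was 0.0865 with the gate of 2 UMIs, 0.00135 on the changed CD4 side and -0.0265 to 0.00500 without a library.

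Same-numbered libraries did not deviate together: correlations of their deviations from the group means were -0.043 to 0.161 over TRAV and -0.330 to 0.0999 over TRAJ, so the numbers were not taken as pairs. With the number as a replicate block, TRAJ calls were 1 in homo and 0 in het against WT, pair calls 0 and 0 (TRAV12D-3-TRAJ23 had edgeR adjusted p of 0.0645 and 0.0779), and the differences of mean TRAJ order, TRAV11-TRAJ18 and TRAV1-TRAJ33 were -0.55, -0.115 and -0.0757, where the smallest exact permutation p is 0.0556.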
